A study of Mus musculus with 18 samples.

Results

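Interferon-stimulated genes were followed in mouse liver across 6 groups of mice. The genes were chosen by name from the deposited expression table, and all 39 named genes were found there with the status OK in every group, out of 37303 genes in all. They were read as 31 type I-like genes, 7 guanylate-binding proteins and interferon-gamma-induced GTPases (Gbp2, Gbp3, Gbp6, Gbp7, Igtp, Irgm1 and Irgm2), and Irf1, which answers to both types of interferon and was kept apart.

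The livers came from wild type (WT) mice and from mice with a whole-body deletion of Gcn2 or of Atf4, all on the C57BL/6J background. GCN2 is the kinase that senses amino acid shortage and phosphorylates eIF2, and ATF4 is the transcription factor whose translation then increases. Mice received 8 daily intraperitoneal injections of the asparagine-degrading enzyme asparaginase (ASNase, 3 IU per gram body weight) or of phosphate buffered saline (PBS), and per the labels were killed 7.5 h after an injection. Each of the 6 groups, WT PBS, WT ASNase, Gcn2-/- PBS, Gcn2-/- ASNase, Atf4-/- PBS and Atf4-/- ASNase, held 3 mice of both sexes (1 or 2 males each), aged 8 to 16 weeks by the sample labels and 8 to 12 weeks by the growth protocol. WT ASNase and both Atf4-/- groups held 2 males, and WT PBS and both Gcn2-/- groups 1. Sex was therefore not balanced within WT or between the mutant strains.

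The table gives 1 value per gene and group, pooled by Cuffdiff over the 3 mice of the group, with the lower and upper bound of an interval. Its unit is FPKM, a count of fragments scaled to transcript length and to the size of the library, so levels can be compared between genes. Values of single mice were not used here, so no standard deviation, test or p-value could be computed, and brackets below hold the authors' interval. Differences are those of log2(FPKM + 0.1), on which the change of weakly expressed genes comes out too small. A gene was called in a comparison when its log2 difference was over 1.5 with separate intervals, both values being reliable by the status and above 0, and at least 1 of them over 3 FPKM, and "rose" and "fell" are used of called genes only. The intervals were wide: for the 39 genes they reached, at the median, 57.3% to either side of the value in Gcn2-/- PBS and 74.8% in Atf4-/- ASNase.

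At the level of whole genes the table did not separate the deletions from WT. Eif2ak4, which encodes GCN2, was at 2.19 to 3.14 FPKM in all groups, and Atf4 was 50.4 and 63.1 FPKM in WT, 60.0 and 68.1 in Gcn2-/- and 32.3 and 29.3 in Atf4-/-. Reads from the parts of a gene that a deletion leaves in place would be counted in these values. The paper reports both deletions from RNA read density plots, with an exon of Gcn2 absent in Gcn2-/- mice and Atf4 absent in Atf4-/- mice.

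Type I interferons (interferon alpha and beta) signal through IFNAR1 and IFNAR2 to a complex with STAT2 and IRF9 that binds the interferon-stimulated response element (ISRE), while interferon gamma signals through IFNGR1 and IFNGR2 and acts on the gamma-activated site (GAS). Their target genes encode sensors of viral nucleic acid, antiviral effectors and the regulators that amplify or end the response, and the p47 and p65 families of GTPases act on vacuoles that hold pathogens. Hepatocytes, Kupffer cells and endothelial cells of the liver all respond to interferon. Many of the genes lie side by side: in GENCODE (GRCm38) the 39 are spread over 13 chromosomes, and 19 of them fall into 7 clusters of neighbours within 300 kb.

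Promoter sequence is shown for 7 of the genes because the ISRE core can be read in it. The sequences are from RefSeq (GRCm38.p6), 5' to 3' on the strand of the gene, end before the transcribed part in both RefSeq and GENCODE, and carry in capitals each match to the ISRE core, which is GAAA, any 2 bases and GAAA again, or to its reverse complement, overlapping matches as 1 run. Isg15 encodes a ubiquitin-like protein (chr4:156200819-156200918, minus strand). Ifit1 and Ifit3 encode proteins that bind foreign RNA or its partners (chr19:34640769-34640870 and chr19:34583359-34583528, plus strand). Oas1a encodes an oligoadenylate synthetase (chr5:120907526-120907589, minus strand), and Bst2 encodes tetherin, which holds budding virus at the cell surface (chr8:71537473-71537612, minus strand). Gbp3 and Igtp encode a guanylate-binding protein and an immunity-related GTPase (chr3:142559964-142560025 and chr11:58199476-58199555, plus strand).
Isg15: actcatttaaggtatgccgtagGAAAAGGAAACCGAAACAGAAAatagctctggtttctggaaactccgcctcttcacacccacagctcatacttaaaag
Ifit1: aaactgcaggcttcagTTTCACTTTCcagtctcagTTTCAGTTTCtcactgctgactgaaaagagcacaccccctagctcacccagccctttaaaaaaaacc
Ifit3: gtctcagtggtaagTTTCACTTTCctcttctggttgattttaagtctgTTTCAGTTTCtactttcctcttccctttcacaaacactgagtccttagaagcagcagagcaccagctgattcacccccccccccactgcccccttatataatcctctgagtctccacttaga
Oas1a: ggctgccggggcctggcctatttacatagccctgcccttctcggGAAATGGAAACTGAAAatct
Bst2: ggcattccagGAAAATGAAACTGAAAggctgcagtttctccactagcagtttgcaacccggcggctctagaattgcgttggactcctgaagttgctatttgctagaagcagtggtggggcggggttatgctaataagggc
Gbp3: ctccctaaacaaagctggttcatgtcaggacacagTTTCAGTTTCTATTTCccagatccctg
Igtp: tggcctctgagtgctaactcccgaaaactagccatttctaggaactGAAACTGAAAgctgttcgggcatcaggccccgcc

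Promoters (250 bases before to 50 after the start) of 28 of the 39 genes were matched in the table of RefSeq promoters, searched on both strands. The core was present for 17 of these 28 genes (60.7%), against 3.99% of the 27025 genes with a promoter. It was found for 11 of 21 type I-like genes and 6 of 6 GTPases, so both classes held it. The longer form, in which CT follows the core, was found for 10 of 28 (35.7%) against 0.303% of all genes. The GAS pattern TTCNNNGAA was found for 9 of 28 (32.1%), among them 3 of the 6 GTPases, against 9.55% of all genes. A match is a run of letters and not a measured binding site.

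The 39 genes took opposite directions after ASNase in the mutant strains. In Gcn2-/- liver 37 of 39 had a higher value after ASNase than after PBS, whereas 38 of 39 had a lower value in WT liver and 37 of 39 in Atf4-/- liver. Among all genes over 3 FPKM in either group the share with a higher value in Gcn2-/- was 51.5%, and the shares with a lower value were 51.0% in WT and 46.2% in Atf4-/-. Over the 39 genes WT liver had a median log2 difference of -0.70, Gcn2-/- liver of 1.06 and Atf4-/- liver of -1.32, beside -0.01, 0.02 and 0.08 over all genes over the limit. For 34 genes the value was higher in Gcn2-/- and lower in both other strains, and the exceptions were Isg20, Irf1, Oas1b, Oasl1 and Dtx3l.

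**Figure D1:**
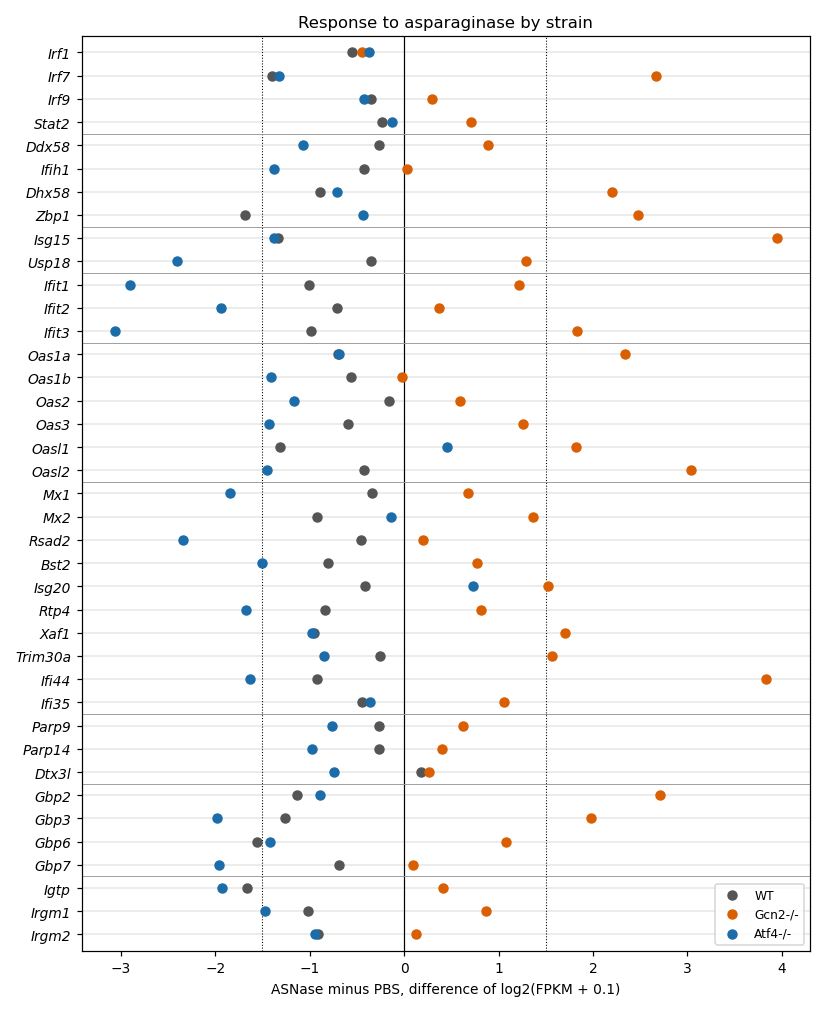
Log2 difference (ASNase minus PBS, of FPKM + 0.1) of each of the 39 genes in WT (grey), Gcn2-/- (orange) and Atf4-/- (blue) liver, grouped by role with thin lines between groups and dotted lines at the limit of 1.5 in either direction. The orange points lie to the right of 0 for 37 genes, while the grey points lie to the left for 38 and the blue points for 37.

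Gcn2-/- ASNase was the highest of the 6 groups for 33 of the 39 genes, as it was for 18.7% of all genes over 3 FPKM in any group. Atf4-/- ASNase was the lowest for 31 of 39, beside 30.7% of all genes over that limit. The 31 include Ifit2, Mx1, Oas1b, Oas2, Oas3 and Rsad2, which were not over 3 FPKM in any group, while both background shares leave such genes out. Genes not highest in Gcn2-/- ASNase were highest in WT PBS (Ifit2, Rsad2 and Gbp6), in Gcn2-/- PBS (Irf1) or in Atf4-/- PBS (Oas1b and Ifih1). Summed over the 39 genes, the level after PBS and after ASNase was 640 and 368 FPKM for WT, 509 and 1233 for Gcn2-/-, and 512 and 230 for Atf4-/-. Bst2 held between 29.2% and 41.5% of each sum, and without it the sums were 377 and 217 FPKM for WT, 298 and 873 for Gcn2-/-, and 315 and 161 for Atf4-/-. In whole liver, fewer cells of a type and less RNA per cell cannot be told apart.

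**Figure D2:**
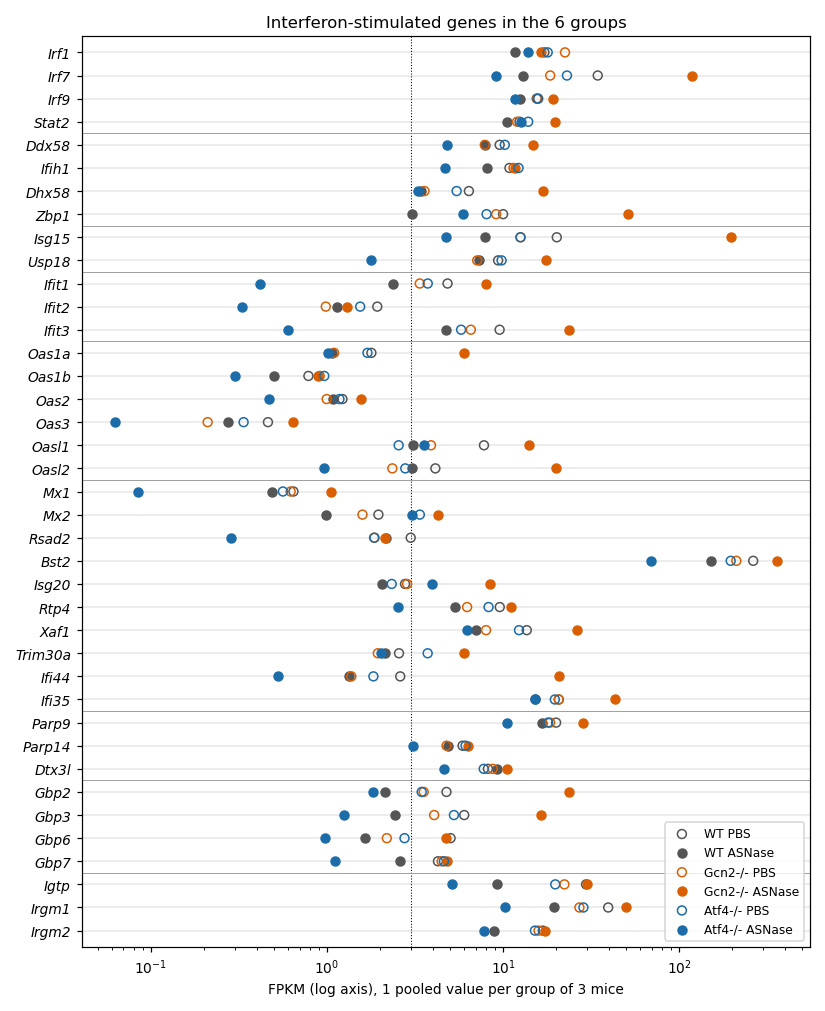
Level of each gene in FPKM on a log axis, 1 pooled value per group of 3 mice, with open circles for PBS, filled circles for ASNase and a dotted line at 3 FPKM. The filled orange circle (Gcn2-/- ASNase) is the rightmost for 33 genes and the filled blue circle (Atf4-/- ASNase) the leftmost for 31.

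Few of these differences passed the limits. In WT liver 1 of the 39 genes, Gbp6, was called lower, as were 0.121% of all genes over 3 FPKM. In Gcn2-/- liver 4 genes were called higher (background 1.56%), namely Isg15, Oasl2, Gbp2 and Oas1a, and in Atf4-/- liver 6 were called lower (background 4.63%), namely Ifit3, Ifit1, Usp18, Gbp7, Rtp4 and Bst2. The numbers of the 39 that were over the FPKM limit, and so could be called, were 28, 33 and 29 in WT, Gcn2-/- and Atf4-/-. In Gcn2-/- liver 10 further genes were past the fold with overlapping intervals (Isg20, Trim30a, Xaf1, Oasl1, Ifit3, Gbp3, Dhx58, Zbp1, Irf7 and Ifi44). Of all 9218 genes over 3 FPKM in that comparison, 278 were past the fold upward and 144 of these were called.

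The transcription factors differed among themselves. Irf7, which amplifies the type I response, was measured at 34.5 FPKM (12.0 to 57.0) after PBS and 13.1 (3.90 to 22.2) after ASNase for WT liver, 18.6 (6.82 to 30.3) and 118 (25.9 to 210) for Gcn2-/-, and 23.1 (8.29 to 37.9) and 9.16 (0 to 19.5) for Atf4-/-. Gcn2-/- ASNase stood above every other group in value, but its interval overlapped those of all 3 PBS groups. Its log2 response of 2.66 in Gcn2-/- liver was not called, nor were those of -1.40 in WT and -1.32 in Atf4-/- liver. Irf9 and Stat2, which act together in the type I response, lay within narrow ranges of 11.6 to 19.1 and 10.5 to 19.8 FPKM, with the top value of each in Gcn2-/- ASNase. Irf1, which responds to interferon gamma as well, was 17.2 and 11.7 FPKM (WT, PBS and ASNase), 22.5 and 16.5 (Gcn2-/-) and 18.0 and 13.8 (Atf4-/-). It was lower after ASNase in all 3 strains, by log2 differences of -0.55, -0.45 and -0.38, and its intervals overlapped throughout.

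Sensors of nucleic acid differed in how far they moved. Zbp1, a sensor of Z-form nucleic acid linked to cell death, was at 10.0 FPKM (4.13 to 15.9) in WT PBS and 3.05 (0.715 to 5.39) in WT ASNase. In Gcn2-/- liver it was 9.15 (3.91 to 14.4) after PBS and 51.3 (14.4 to 88.2) after ASNase, 2 intervals that overlapped by a narrow margin. In Atf4-/- liver it was 8.07 and 5.92. Dhx58, which encodes the RIG-I-like receptor LGP2, had a lower bound of 0 in every group, so its value of 16.9 in Gcn2-/- ASNase against 3.31 to 6.41 elsewhere has little weight. Ddx58 (RIG-I) and Ifih1 (MDA5), the RIG-I-like receptors that signal, had log2 responses of 0.89 and 0.03 in Gcn2-/- and of -1.07 and -1.37 in Atf4-/-, and no pair of groups had separate intervals for either gene.

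The 2 genes of the ISG15 system were each called against PBS in 1 strain only, Isg15 higher in Gcn2-/- and Usp18 lower in Atf4-/-. Isg15 was at 20.2 FPKM (10.7 to 29.7) after PBS and 7.96 (3.38 to 12.5) after ASNase for WT liver, 12.6 (6.15 to 19.1) and 196 (65.3 to 327) for Gcn2-/-, and 12.6 (6.15 to 19.0) and 4.78 (1.59 to 7.97) for Atf4-/-. The interval of Gcn2-/- ASNase lay above those of all 5 other groups, and Isg15 rose 15.6-fold in this strain (log2 3.95), while its log2 differences of -1.33 (WT) and -1.38 (Atf4-/-) were not called. Usp18, the protease that removes ISG15 from proteins and also restrains the type I receptor, was 9.39 and 7.33 FPKM (WT, PBS and ASNase), 7.14 and 17.6 (Gcn2-/-) and 9.82 and 1.77 (Atf4-/-), the last with an interval of 0.645 to 2.90. It fell 5.54-fold in Atf4-/- liver (log2 -2.40), to an interval below those of all 5 other groups.

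The IFIT genes, adjacent on chromosome 19 (chr19:34550694-34650009), showed their largest differences in Atf4-/- liver. Ifit3 was at 9.57 FPKM (5.22 to 13.9) after PBS and 4.77 (2.19 to 7.36) after ASNase for WT liver, 6.57 (3.48 to 9.67) and 23.6 (8.77 to 38.4) for Gcn2-/-, and 5.79 (2.99 to 8.59) and 0.604 (0.106 to 1.10) for Atf4-/-. Ifit1 likewise had its top value in Gcn2-/- ASNase and its lowest in Atf4-/- ASNase, with 4.85 and 2.36 FPKM (WT, PBS and ASNase), 3.37 and 7.99 (Gcn2-/-) and 3.74 and 0.415 (Atf4-/-), the last with an interval of 0.0486 to 0.782. For both genes the interval of Atf4-/- ASNase was below that of every other group, and they fell 9.57-fold and 9.01-fold against Atf4-/- PBS (log2 -3.06 and -2.90). Ifit2 reached no more than 1.93 FPKM and so could not be called, with a log2 difference of -1.94 in Atf4-/- and 0.37 in Gcn2-/-.

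**Figure D3:**
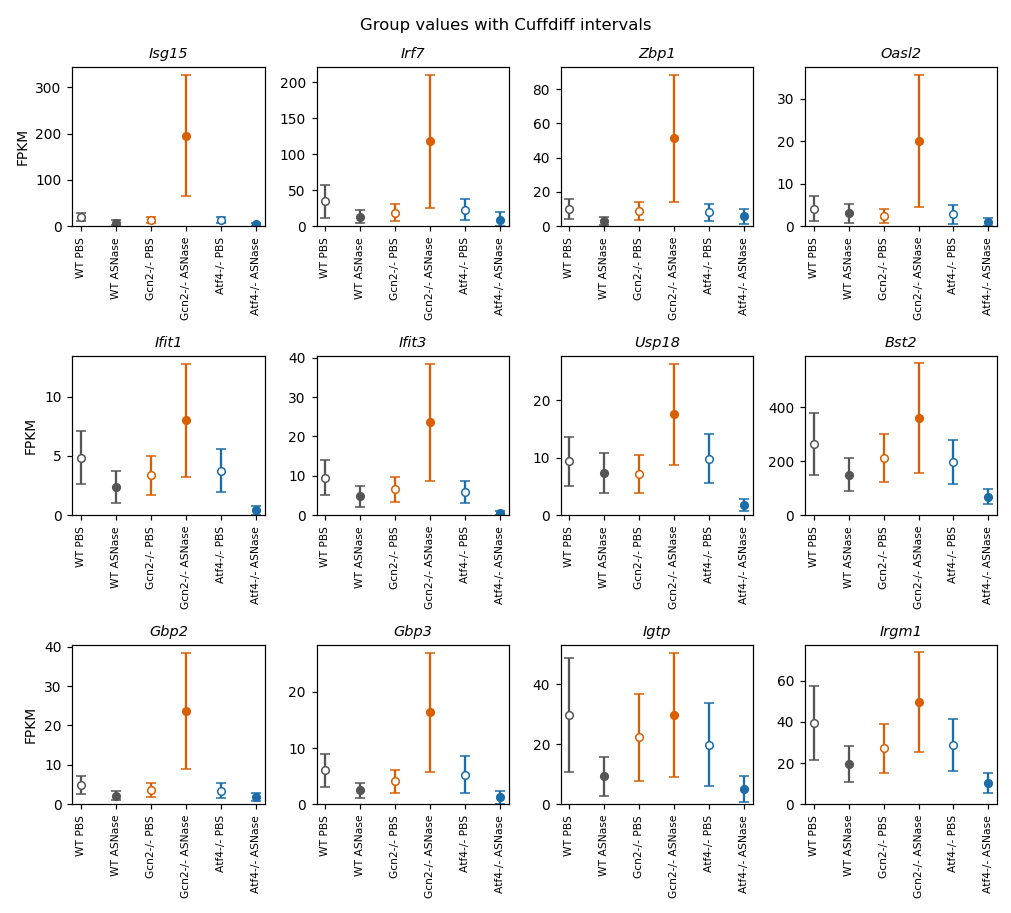
FPKM of 12 genes in the 6 groups, with the authors' Cuffdiff intervals as bars, open symbols for PBS and filled symbols for ASNase, each panel on its own linear axis from 0. Isg15 and Gbp2 have a Gcn2-/- ASNase interval above all other groups, and Ifit1, Ifit3 and Usp18 an Atf4-/- ASNase interval below all other groups.

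Of the 6 oligoadenylate synthetase genes, whose active products make the 2-5A that switches on RNase L, 2 were called, and both rose in Gcn2-/- liver. Oasl2 was 4.13 and 3.05 FPKM (WT, PBS and ASNase), 2.36 and 20.1 (Gcn2-/-) and 2.79 and 0.958 (Atf4-/-), a rise of 8.51-fold in Gcn2-/- (4.47 to 35.6 against 0.703 to 4.01). Oas1a was 1.79 and 1.06 FPKM (WT, PBS and ASNase), 1.10 and 5.97 (Gcn2-/-) and 1.70 and 1.02 (Atf4-/-) and rose 5.43-fold there. Oas1b, Oas2 and Oas3 stayed at or below 1.56 FPKM in all groups, too low for a call. Oasl1 went its own way in Atf4-/- liver, with 2.56 FPKM after PBS and 3.55 after ASNase. Reads of Oas1a can be shared with near-identical copies of the gene, so its value carries that uncertainty as well.

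Among the other antiviral effectors the most abundant was Bst2, at 263 FPKM (147 to 380) after PBS and 151 (88.5 to 213) after ASNase for WT liver, 211 (122 to 301) and 360 (157 to 563) for Gcn2-/-, and 196 (114 to 279) and 69.2 (40.4 to 98.0) for Atf4-/-. It fell 2.84-fold in Atf4-/- liver (log2 -1.50, just past the limit). Rtp4, a transmembrane protein with antiviral activity, fell 3.27-fold in the same strain, from 8.28 FPKM (4.50 to 12.1) to 2.53 (0.990 to 4.07). Ifi44 had the second largest log2 difference in Gcn2-/- liver, 3.83, but its value of 20.9 FPKM carried an interval of 0.108 to 41.7. Rsad2 (viperin) was at 2.99 and 2.16 FPKM (WT, PBS and ASNase), 1.85 and 2.14 (Gcn2-/-) and 1.87 and 0.288 (Atf4-/-), and with no value over 3 it could not be called despite a log2 difference of -2.34 in Atf4-/-. Isg20, an exonuclease, was higher after ASNase in both mutant strains, at 8.42 against 2.86 FPKM in Gcn2-/- and 3.93 against 2.34 in Atf4-/-, with overlapping intervals in each. Xaf1, Trim30a and Ifi35 differed by 1.71, 1.57 and 1.06 on the log2 scale in Gcn2-/- liver and were not called, and Mx1 and Mx2 did not exceed 1.06 and 4.26 FPKM.

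No gene of the PARP9-DTX3L group was called. Parp9, Parp14 and Dtx3l, which encode proteins of the ADP-ribosyltransferase family and the ubiquitin ligase partner of PARP9, had log2 differences between 0.27 and 0.62 in Gcn2-/- liver, and between -0.97 and -0.74 in Atf4-/- liver. Dtx3l was the 1 gene with a higher value after ASNase in WT (9.30 against 8.22 FPKM). Parp9 and Dtx3l overlap in the genome, and their reads may have been split between them.

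The guanylate-binding proteins, GTPases that coat and disrupt pathogen vacuoles, included 1 called gene in each strain. Gbp2 was at 4.78 FPKM (2.49 to 7.07) after PBS and 2.13 (0.933 to 3.33) after ASNase for WT liver, 3.55 (1.72 to 5.38) and 23.7 (8.89 to 38.5) for Gcn2-/-, and 3.46 (1.66 to 5.26) and 1.82 (0.759 to 2.88) for Atf4-/-. It rose 6.67-fold in Gcn2-/- liver, to an interval above all 5 other groups. Gbp3, its neighbour on chromosome 3, was 6.03 and 2.45 FPKM (WT, PBS and ASNase), 4.07 and 16.4 (Gcn2-/-) and 5.27 and 1.26 (Atf4-/-), and its log2 differences of 1.98 (Gcn2-/-) and -1.98 (Atf4-/-) missed the call because the intervals overlapped. Gbp6 fell 3.05-fold in WT liver, from 5.04 FPKM (2.82 to 7.27) to 1.65 (0.805 to 2.50). Gbp7 fell 4.14-fold in Atf4-/- liver, from 4.62 (2.57 to 6.68) to 1.12 (0.514 to 1.72), and was 4.49 and 4.80 in Gcn2-/- liver. Gbp6 has close paralogs, among them Gbp10, with which reads can be shared, and its Ensembl identifier has a provisional name in the annotation used for positions.

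The immunity-related GTPases were lower after ASNase in WT and Atf4-/- liver and had smaller positive differences in Gcn2-/-. Igtp (Irgm3) was 29.6 and 9.28 FPKM (WT, PBS and ASNase), 22.3 and 29.8 (Gcn2-/-) and 19.8 and 5.12 (Atf4-/-), with log2 differences of -1.67, 0.42 and -1.93 and overlapping intervals in each strain. Irgm1, a regulator of the other immunity-related GTPases, was 39.6 and 19.6 FPKM (WT, PBS and ASNase), 27.2 and 49.7 (Gcn2-/-) and 28.6 and 10.3 (Atf4-/-), with log2 differences of -1.01, 0.87 and -1.47. Irgm2 was the least changed, at -0.91, 0.13 and -0.94. The Igtp and Irgm2 loci overlap on chromosome 11 (chr11:58199556-58222782), so the split of their reads is uncertain.

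Side by side, the classes had the same direction in every strain. For the 31 type I-like genes the WT median was -0.56, the Gcn2-/- median 1.22 and the Atf4-/- median -1.16, and for the 7 GTPases these were -1.13, 0.87 and -1.47. The GTPase medians were the lower of the pair in all 3 strains, but the values of the classes overlapped widely. In Gcn2-/- liver the type I-like genes ran from -0.03 to 3.95 and the GTPases from 0.09 to 2.70. In Atf4-/- liver they ran from -3.06 to 0.73 and from -1.98 to -0.89. Of the called genes, Gbp6 in WT, Gbp2 in Gcn2-/- and Gbp7 in Atf4-/- were GTPases, and the other 3 in Gcn2-/- and 5 in Atf4-/- were type I-like. With 7 genes in 1 class, some of them neighbours that may share reads, these medians describe the genes and were not tested.

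**Figure D4:**
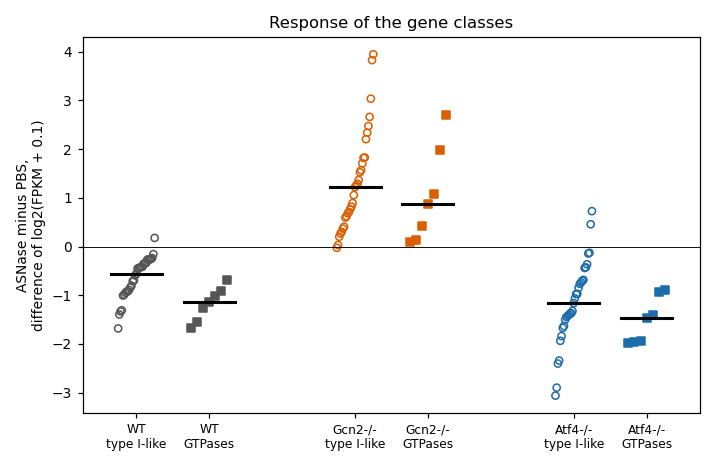
Log2 difference (ASNase minus PBS, of FPKM + 0.1) of the 31 type I-like genes (open circles) and the 7 GTPases (filled squares) in each strain, sorted within a class, with the class median as a black bar. The medians are -0.56 and -1.13 in WT, 1.22 and 0.87 in Gcn2-/-, and -1.16 and -1.47 in Atf4-/-.

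The response of Gcn2-/- liver minus that of WT liver was positive for all 39 genes, from 0.09 to 5.28 with a median of 1.82. For the type I-like genes the median was 1.66 and for the GTPases 2.08. The response of Atf4-/- minus that of WT was negative for 27 and positive for 12, with medians of -0.70 for the type I-like genes and -0.27 for the GTPases. No interval of these differences of differences was computed, nor their share or median over all genes, so these counts have no background beside them. The strains were compared directly under PBS and under ASNase.

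Under PBS no gene passed the limits between strains. In Gcn2-/- PBS against WT PBS none of the 39 was called (background 1.04% in either direction), nor in Atf4-/- PBS against WT PBS (background 1.12%). No p-value stands behind either count, since the table holds no value per mouse. The numbers of the 39 over the FPKM limit were 28 in Gcn2-/- and 30 in Atf4-/-, so counts of 0 are near what the background shares give. The values were lower than in WT for 32 of 39 genes in Gcn2-/- and for 29 of 39 in Atf4-/-, where 39.9% and 49.6% of all genes over the limit were lower. The medians were -0.39 and -0.19, beside 0.06 and 0.00 over all genes. The largest differences in Gcn2-/- were those of Gbp6 (-1.17), Oasl1 (-0.98), Irf7 (-0.89), Dhx58 (-0.82) and Oasl2 (-0.79), among genes over 3 FPKM in either group. In Atf4-/- they were those of Oasl1 (-1.57), Gbp6 (-0.85), Mx2 (0.75), Ifit3 (-0.72) and Isg15 (-0.68). Oasl1 in Atf4-/- (2.56 against 7.80 FPKM, log2 -1.57) was the 1 gene past the fold, with overlapping intervals. These comparisons share the WT PBS group, so a high value there lowers both.

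In Gcn2-/- ASNase against WT ASNase 9 genes were called higher (background 1.83%): Isg15, Zbp1, Gbp2, Irf7, Gbp3, Oas1a, Ifit3, Mx2 and Ifi35. Isg15 was 24.6-fold higher, Zbp1 16.8-fold, Gbp2 11.1-fold and Irf7 9.04-fold, and Ifi35, at 2.84-fold, was just past the limit. Ifi44 had a log2 difference of 3.88 and missed the call through its interval. The median over the 39 genes was 1.34, with 1.25 for the type I-like genes and 1.46 for the GTPases. In Atf4-/- ASNase against WT ASNase 25 of the 39 genes were over the FPKM limit. Of these, 2 were called lower (background 5.66%), Ifit3 by 7.90-fold and Usp18 by 4.13-fold, a count near what the background share gives. Oasl2 (-1.57) and Bst2 (-1.12) had the next largest negative differences among genes over 3 FPKM and were not called. The median was -0.71, and Mx2, an interferon-induced dynamin-like GTPase, stood against it with 3.05 against 0.986 FPKM and overlapping intervals.

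Of the 8 comparisons, that of the mutant strains under ASNase held the most calls. In Atf4-/- ASNase against Gcn2-/- ASNase 15 of the 39 genes were called lower (background 2.29%) and none higher (background 0.898%). Isg15 was 41.0-fold lower, Ifit3 39.0-fold, Oasl2 20.9-fold and Ifit1 19.2-fold, while Ifi44, with a log2 difference of -5.07, had overlapping intervals. The next were Gbp3, Gbp2 and Irf7 at 13.0-fold, 13.0-fold and 12.9-fold, and the remaining 8 were Usp18, Zbp1, Oas1a, Bst2, Irgm1, Gbp6, Rtp4 and Gbp7, between 4.30-fold and 9.91-fold. The called genes were 10 type I-like genes and 5 of the 7 GTPases. The median difference was -2.09, with -2.07 for the type I-like genes and -2.26 for the GTPases, where all genes over the limit had a median of 0.00. This comparison uses the same ASNase groups as the responses above and does not add to them.

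The genes of the wider pathway were taken from fixed lists. Of 10 interferon ligand genes 8 were found in the table, and 6 of these (Ifnb1, Ifna1, Ifna2, Ifna4, Ifna5 and Ifne) were listed at 0 in every group. Ifnk and Ifng had values of up to 0.105 and 0.0511 FPKM, with intervals that reached down to 0 in every group. None of the receptor genes was called in a response to ASNase. Of all genes over 3 FPKM, 0.881% in WT, 3.69% in Gcn2-/- and 7.37% in Atf4-/- were called in either direction. For so few receptor genes, 0 calls is near what these shares give. Ifnar1 ranged over the groups from 9.27 to 12.0 FPKM, Ifnar2 from 60.2 to 77.5, Ifngr1 from 7.51 to 11.5 and Ifngr2 from 8.49 to 13.2. Il10rb, a subunit of the interferon lambda receptor, ranged from 4.04 to 7.67 with a lower bound of 0 in every group, so its values have little weight.

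Of 13 receptor and signalling genes found, 1 was called in Gcn2-/- and 2 in Atf4-/-, all of them suppressors of cytokine signalling. These calls were all higher, beside 1.56% of all genes over 3 FPKM called higher in Gcn2-/- and 2.74% in Atf4-/-. Socs3, which restrains STAT3 signalling in particular, was 3.36 and 2.57 FPKM (WT, PBS and ASNase), 4.93 and 26.8 (Gcn2-/-) and 7.23 and 56.6 (Atf4-/-) and rose in both mutant strains (log2 2.42 and 2.95). Socs1, which inhibits the kinases of the interferon receptors, was 0.460 and 0.289 FPKM (WT, PBS and ASNase), 0.378 and 1.45 (Gcn2-/-) and 0.429 and 6.90 (Atf4-/-) and rose in Atf4-/- liver (log2 3.73). None of the 14 inducers of interferon found was called in a response to ASNase. With 10 of them over the FPKM limit in each strain, this is near what the shares over all genes give. Ikbke, a kinase upstream of IRF3 and IRF7 chosen after its values were seen, was higher in value in both mutants, at 50.1 against 13.2 FPKM in Gcn2-/- and 32.3 against 9.35 in Atf4-/-.

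**Figure D5:**
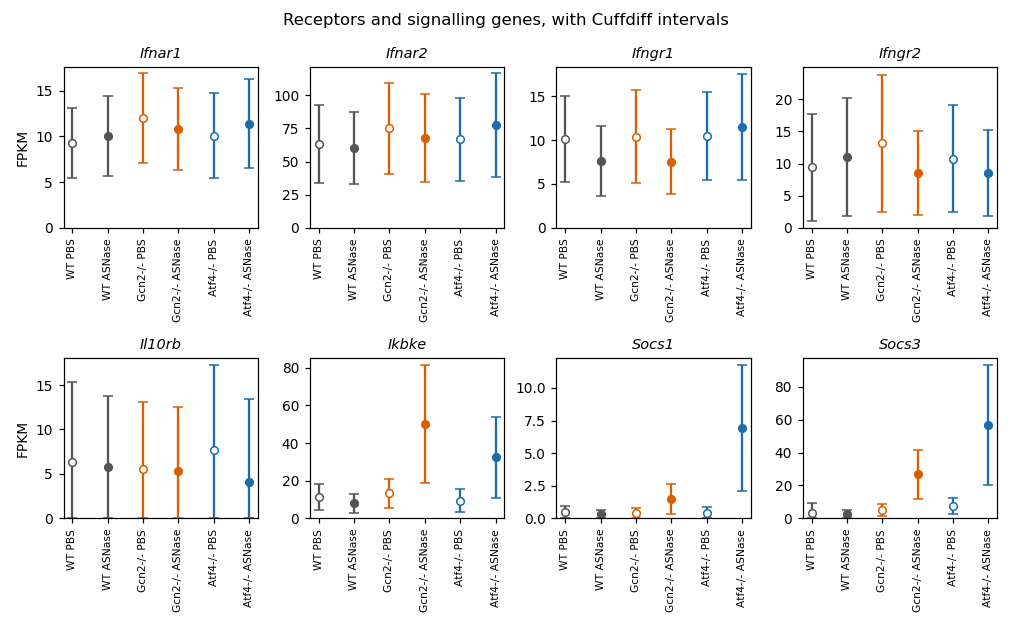
FPKM of 5 interferon receptor genes and of Ikbke, Socs1 and Socs3 in the 6 groups, with Cuffdiff intervals as bars, open symbols for PBS and filled symbols for ASNase, each panel on its own linear axis from 0. The receptor intervals overlap in all groups, while Socs3 rises in both mutant strains and Socs1 in Atf4-/-.

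A list of 42 other type I-induced genes, of which 38 were found, had medians of -0.49 in WT (38 of 38 lower), 0.57 in Gcn2-/- (30 of 38 higher) and -0.98 in Atf4-/- (31 of 38 lower). A list of 26 other interferon-gamma-induced genes had medians of -0.67, 0.33 and -1.31. Few were called. Ifitm2, which blocks virus entry, rose in Gcn2-/- liver (log2 1.73). Its log2 difference in Atf4-/- liver was 1.67, not called because the intervals overlapped (178 to 448 FPKM after PBS, 437 to 1557 after ASNase). Summed over the 38 type I-induced genes, Atf4-/- liver had 1394 FPKM after PBS and 2076 after ASNase, although 31 of them were lower. In Atf4-/- liver Apol9a, Apol9b, Ifi27l2a and the immunity-related GTPase gene Iigp1 fell, by log2 differences of -3.23, -2.60, -2.81 and -2.56. Apol9a and Iigp1 had lower values after ASNase in Gcn2-/- liver too (log2 -0.31 and -0.43), unlike 37 of the 39 genes. Gbp10 fell in WT (log2 -1.90), and Gbp11 fell in Gcn2-/- liver (log2 -2.35), against the direction of the Gbp genes above.

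Markers of other cells moved with the treatment as well. The 7 Kupffer cell and macrophage markers found summed to 234 FPKM after PBS and 131 after ASNase for WT liver, 158 and 210 for Gcn2-/-, and 270 and 168 for Atf4-/-. In Gcn2-/- liver they did not move as one, since Marco, a scavenger receptor, rose from 8.32 to 118 FPKM while Clec4f was 67.3 and 15.9. In Atf4-/- liver 6 of the 7 markers had lower values after ASNase (median log2 difference -0.97), as most interferon-stimulated genes did. Marco was the 1 exception and rose (9.22 to 67.3 FPKM), while Cd5l fell (log2 -1.55). The part of macrophages in the results above was not tested.

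The 9 T and NK cell markers summed to 5.51 and 1.76 FPKM (WT, PBS and ASNase), 3.64 and 1.26 (Gcn2-/-) and 4.11 and 1.02 (Atf4-/-) and were all lower after ASNase in each strain, with 8 of them below 1 FPKM in all groups. The 4 B cell markers summed to 3.28 and 0.898 FPKM (WT, PBS and ASNase), 2.32 and 0.533 (Gcn2-/-) and 2.86 and 0.268 (Atf4-/-), and the 7 monocyte and dendritic cell markers to 3.01 and 1.28 FPKM (WT, PBS and ASNase), 1.84 and 0.293 (Gcn2-/-) and 2.26 and 0.241 (Atf4-/-), with 6 of the 7 below 1 FPKM in all groups. These sums were lower after ASNase in all 3 strains, and the part of these cells in the results was not tested. The 8 neutrophil markers summed to 8.68 and 6.44 FPKM (WT, PBS and ASNase), 12.2 and 3.82 (Gcn2-/-) and 16.8 and 7.19 (Atf4-/-), and 1 of them, S100a9, fell in Gcn2-/- liver. The 7 hepatocyte markers with the status OK were high in every group, as the tissue label says, and summed to 41115 FPKM after PBS and 32846 after ASNase for WT liver, 42353 and 20280.2 for Gcn2-/-, and 36207 and 16213 for Atf4-/-. Their median log2 difference was -0.34 for WT, -0.80 for Gcn2-/- and -1.12 for Atf4-/-, with none called. These sums were lower after ASNase in WT and Atf4-/- liver, where most interferon-stimulated genes had lower values, and in Gcn2-/- liver, where most had higher ones, and the part of hepatocyte RNA in the results was not tested. The 6 endothelial markers summed to between 54.4 and 118 FPKM. Skeletal muscle markers summed to 611 and 883 FPKM in the WT groups, 5.44 and 8.51 in Gcn2-/- and 48.8 and 92.2 in Atf4-/-. They were highest in the WT groups and lowest in the Gcn2-/- groups, and their part in the results was not tested.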

How the data were processed

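Poly-A RNA of 18 mouse livers, 3 per group, was sequenced. The authors aligned reads to mm10 with TopHat and estimated expression with Cuffdiff, per the paper's methods and the labels; the deposited FPKM values, and the interval bounds in the same unit, are 1 per gene and group, pooled over the 3 libraries of the group. FPKM keeps no read counts, so the depth behind a value is unknown here, and the Cuffdiff interval was taken as its precision; the level of the interval is not given in the sources used here. An exact 0 may mean that no estimate was made, and 45 genes lacked the status OK in at least 1 group.

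Groups came from the labels. Differences of log2(FPKM + 0.1) were computed over all 37303 genes for 8 comparisons with Python 3.11.15, NumPy 2.4.6 and pandas 2.3.3. The limits of 3 FPKM and 1.5 were taken from the study's methods, and separate intervals stood in for a test. The script for calls was tested on simulated data. Every member could be named; of other pathway genes, ligands, receptors and those called after ASNase were named. The members and lists were chosen with earlier results of these data known. Alternatives were another pseudocount, FPKM limit, fold limit, treatment of intervals and of zeros, and median-ratio scaling of the groups. Gene positions are from GENCODE M21 (GRCm38), matched by Ensembl ID for all 39 genes. 1 gene of the pathway lists is not reported here.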

Additional observations from a re-analysis of the deposited data

How the results depend on the processing

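The number of called genes depended mainly on the intervals. With the fold alone the calls were 3 in WT, 14 in Gcn2-/- and, for Gcn2-/- ASNase against WT ASNase, 17, in place of 1, 4 and 9. For Atf4-/- ASNase against WT ASNase they were 4 in place of 2, and for Atf4-/- PBS against WT PBS 1 in place of 0. Of all genes over 3 FPKM, the fold was passed downward by 24 of 9084 in WT and upward by 278 of 9218 in Gcn2-/-. For Gcn2-/- ASNase against WT ASNase 311 of 9423 passed it upward. For Atf4-/- ASNase against WT ASNase 467 of 9577 passed it upward and 809 downward. For Atf4-/- PBS against WT PBS 111 of 9039 passed it downward. With the difference set against the combined interval of the 2 values there were 3 in WT, 9 in Gcn2-/- and 14 for Gcn2-/- ASNase against WT ASNase. The share of all genes called under that rule was not computed. A pseudocount of 1 left 0 in WT and 3 in Atf4-/- in place of 6, since it shrinks the differences of low genes. The other 54 counts stayed within 1.5 times. All 64 alternative class medians moved by less than the error that the intervals give for a typical gene of the class. That error, 0.50 to 0.68 on the log2 scale, belongs to 1 gene and is a loose limit for a median. With a pseudocount of 1 the type I-like median of Atf4-/- ASNase against Gcn2-/- ASNase was -1.43 in place of -2.07. For the GTPases the alternative of genes over 3 FPKM held the same 7 genes and could not move. Median-ratio scaling, added after seeing the data for the counts of higher and lower values, shifted no group by more than 0.04 on the log2 scale and kept those counts within 1.5 times. No paired analysis was possible because the table holds 1 pooled value per group; leaving out a mouse in turn was not run for the same reason. With intervals this wide, a difference under the fold limit says little, and genes at or below 3 FPKM were described only by their values.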
